A study of Mus musculus with 12 samples.

Results

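The miR-30 family was followed in the hearts of diabetic and control mice, with and without the monoamine oxidase inhibitor pargyline, through the 7 mature products of the family that the array detected in every heart. Members were the rows of the deposited miRNA array files named mmu-miR-30a-5p, mmu-miR-30b-5p, mmu-miR-30c-5p, mmu-miR-30d-5p, mmu-miR-30e-5p, mmu-miR-30a-3p and mmu-miR-30e-3p, 7 of the 1881 mouse miRNAs on the array and 7 of the 128 that were detected on all 12 arrays. Each array held RNA of the heart muscle of 1 male C57BL6/J mouse aged 5 months, and 3 mice formed each of 4 groups. Control mice (C) received neither agent, and C + P mice were controls that received pargyline at 50 mg/kg/day for 12 weeks. Diabetic mice (D) had been given streptozotocin, which destroys pancreatic beta cells, at 50 mg/kg/day on 5 days from an age of 6 to 7 weeks, and D + P mice received both agents. Mice with a blood glucose of at least 17 mM counted as diabetic. The comparisons asked how diabetes and monoamine oxidase inhibition, alone and together, changed miRNA levels in the heart.

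A miRNA guides the silencing machinery to messenger RNAs, mainly through its seed, bases 2 to 8 from the 5′ end. The 2 arms of each hairpin precursor give a 5p and a 3p product, which carry different seeds. The miR-30 genes lie in pairs, and the family is abundant in cardiomyocytes, where it is known for restraining connective tissue growth factor and autophagy genes such as Becn1. Monoamine oxidases are mitochondrial enzymes that produce hydrogen peroxide as they break down monoamines, and pargyline blocks both of their forms.

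The RefSeq table (build GRCm38.p6) held the mature sequences of 5 of the 7 members, which are shown because miR-30a-5p and miR-30c-5p, called in opposite directions in C + P hearts, share one seed. MiR-30b-5p and miR-30d-5p are named only. Sequences run 5′ to 3′, with the seed in capitals.
miR-30a-5p: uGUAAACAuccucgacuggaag
miR-30e-5p: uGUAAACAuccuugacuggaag
miR-30c-5p: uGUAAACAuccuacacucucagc
miR-30a-3p: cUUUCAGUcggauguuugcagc
miR-30e-3p: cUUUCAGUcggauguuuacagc
MiR-30a-5p and miR-30e-5p matched at 21 of 22 positions and differed by C13U, counted from the 5′ end of miR-30a-5p. MiR-30c-5p matched each of them at 17 of 22 positions, and all 3 were identical over the first 12. The 3p arms of miR-30a and miR-30e matched at 21 of 22 positions and differed by G18A. Among the array miRNAs with a RefSeq sequence, the only other one with the seed of these 5p arms was miR-384-5p, which was detected on 0 arrays. The probes of such close sequences can share signal, and their cross-hybridization was not tested.

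MiR-30a-5p lies at chr1:23272274-23272295 on the plus strand and miR-30a-3p at chr1:23272315-23272336. MiR-30c-5p has 2 loci, Mir30c-2 next to Mir30a at chr1:23291714-23291736 on the plus strand, and Mir30c-1 at chr4:120769584-120769606 on the minus strand. Mir30c-1 neighbours Mir30e, and both lie within the protein-coding gene Nfyc. The mature arms of Mir30e are at chr4:120772660-120772681 for 5p and chr4:120772618-120772639 for 3p, on the minus strand. Mir30b and Mir30d are neighbours on chromosome 15. The array reads both miR-30c loci as 1 signal.

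The arrays differed in brightness before any comparison of the family. The C arrays had 144 to 163 detected miRNAs against 165 to 253 in the other groups, and a mean log2 signal over 10 control features of the array of 10.29 to 10.56, against 10.86 to 11.48 on all other arrays except D + P replicate 1, at 10.29. Slide 1 held the arrays of untreated hearts (C and D) and slide 2 those of pargyline-treated hearts (C + P and D + P), so the effects of pargyline and of the slide cannot be told apart. On each slide the non-diabetic hearts lay in array row 1 and the diabetic ones in row 2. Before normalization the median miRNA was higher by 0.77 (log2) in D and by 1.15 in C + P than in C, and signals were therefore set relative to the bulk of the 128 miRNAs by cyclic loess. Of 7 cardiomyocyte miRNAs looked up as a check of the tissue, 6 were detected on all 12 arrays, namely miR-1a-3p, miR-133a-3p, miR-133b-3p, miR-208a-3p, miR-499-5p and miR-378a-3p, and miR-208b-3p was detected on none.

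On the normalized scale the family did not move as a unit. In D hearts miR-30b-5p and miR-30e-3p rose and miR-30a-5p fell relative to C hearts. In C + P hearts miR-30b-5p and miR-30c-5p rose while miR-30a-5p and miR-30d-5p fell. In D + P hearts no member passed the test against C, and miR-30a-5p, miR-30d-5p and miR-30e-5p rose against D. The members that fell and those that rose in C + P thus sat side by side in the genome, miR-30a beside miR-30c-2 and miR-30d beside miR-30b. Without normalization between arrays miR-30a-5p, miR-30d-5p and miR-30e-5p were higher, not lower, in D and C + P than in C, though by less than the median miRNA for each of them. In whole tissue, fewer cells of a type and less of a miRNA per cell cannot be told apart.

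**Figure D1:**
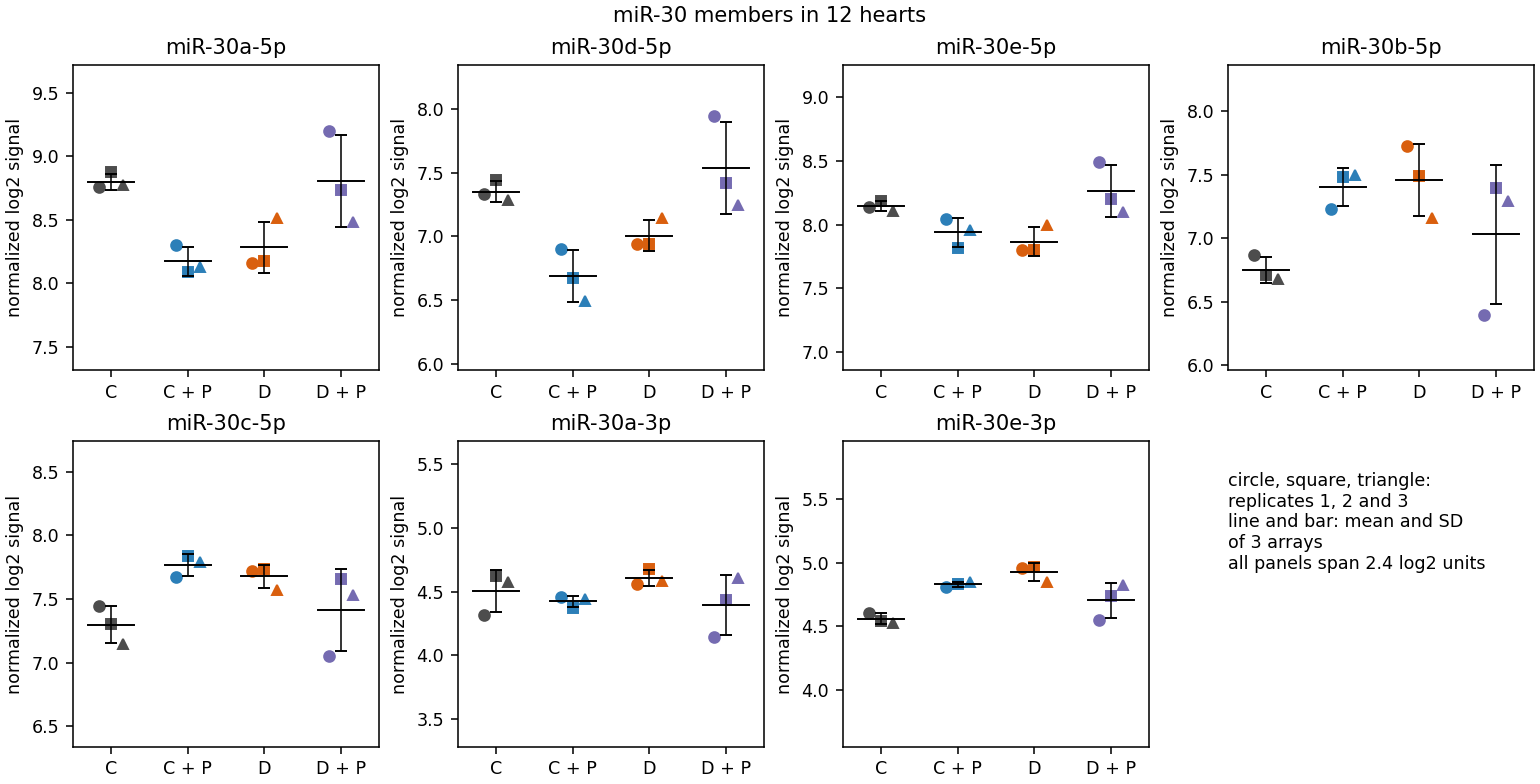
Normalized log2 signal of the 7 miR-30 members in each heart (y axis, cyclic loess; all panels span 2.4 log2 units) by group (x axis), with the mean and SD of 3 arrays. MiR-30a-5p, miR-30d-5p and miR-30e-5p sit lower in C + P and D than in C, an order that reverses without normalization, and miR-30b-5p and miR-30c-5p sit higher; D + P replicate 1 (circle) stands at the end of its group in every panel.

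MiR-30a-5p, a 5p arm from chromosome 1, gave scanner signals of 284, 255 and 284 in the C hearts, 366, 353 and 583 in C + P, 403, 359.9 and 360.0 in D, and 351, 469 and 469.7 in D + P (arbitrary units). Its normalized log2 signals were 8.75, 8.87 and 8.77 in C, 8.30, 8.09 and 8.13 in C + P, 8.16, 8.17 and 8.51 in D, and 9.19, 8.74 and 8.49 in D + P. All C + P and D hearts were below all C hearts on that scale, whereas D + P spanned the C range. Such separation from C was common on these arrays, found for 89 of the 128 miRNAs in D and 97 in C + P. The change from C was -0.52 in D (SE 0.18, limma adjusted p = 0.0296) and -0.63 in C + P (SE 0.18, adjusted p = 0.0260). D + P was higher than D by 0.52 (adjusted p = 0.0306), with the arrays of both groups overlapping, and higher than C + P by 0.63 (adjusted p = 0.0418) without overlap.

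MiR-30d-5p, from chromosome 15, read 112, 104 and 109.5 in C, 130.0, 128 and 180.0 in C + P, 160.1, 141 and 136 in D, and 166, 206 and 201 in D + P. Normalized log2 signals were 7.33, 7.44 and 7.28 in C, 6.90, 6.67 and 6.49 in C + P, 6.94, 6.94 and 7.15 in D, and 7.95, 7.42 and 7.25 in D + P. The lowest values were thus those of C + P, and no C + P or D array reached a C array. C + P was lower than C by a log2 change of -0.67 (SE 0.18, limma adjusted p = 0.0258). The D to C change was -0.35 and did not pass (95% confidence interval -0.73 to 0.04, adjusted p = 0.116). D + P exceeded D by 0.53 (adjusted p = 0.0306) and C + P by 0.85 (adjusted p = 0.0180), the latter being the largest change of any member in the 5 pairwise comparisons.

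MiR-30e-5p, encoded within Nfyc, had signals of 189, 166 and 187 in C, 296, 285 and 502 in C + P, 304, 268 and 248 in D, and 230.3, 337 and 359 in D + P. On the normalized log2 scale these were 8.14, 8.19 and 8.11 in C, 8.04, 7.82 and 7.96 in C + P, 7.80, 7.80 and 7.997 in D, and 8.50, 8.20 and 8.10 in D + P. As for miR-30a-5p, every C + P and D heart lay below every C heart. The changes from C were -0.28 in D (limma adjusted p = 0.0982) and -0.21 in C + P (adjusted p = 0.224), neither past the threshold of 0.05, and D + P was higher than D by 0.40 (SE 0.13, adjusted p = 0.0306).

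MiR-30b-5p, the neighbour of miR-30d, varied most in scanner signal among the members, by 6.37-fold between the lowest and the highest array. It read 81.0, 62.7 and 72.1 in C, 163, 225 and 362 in C + P, 277, 208 and 138 in D, and 56.8, 202 and 207 in D + P. The scanner software's own error on these signals was 8.04% to 8.77%. After normalization the log2 signals were 6.87, 6.71 and 6.68 in C, 7.23, 7.48 and 7.50 in C + P, 7.73, 7.49 and 7.16 in D, and 6.40, 7.40 and 7.30 in D + P. Every C + P and D heart was above every C heart, and D + P replicate 1 lay below them all. The log2 change from C was 0.71 in D (SE 0.24, limma adjusted p = 0.0276) and 0.65 in C + P (SE 0.24, adjusted p = 0.0493). D + P was not distinguishable from D, with a difference of -0.43 (95% confidence interval -0.94 to 0.09).

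MiR-30c-5p, the product of Mir30c-1 and Mir30c-2, read 119, 93.8 and 98.8 in C, 224, 287 and 444 in C + P, 282, 252 and 185 in D, and 86.2, 239.5 and 244 in D + P. The normalized log2 signals were 7.44, 7.31 and 7.15 in C, 7.67, 7.84 and 7.79 in C + P, 7.72, 7.74 and 7.57 in D, and 7.05, 7.66 and 7.53 in D + P. As for miR-30b-5p, C + P and D lay above C without overlap, and D + P replicate 1 was the lowest array of all. The rise from C was 0.47 in C + P (SE 0.16, limma adjusted p = 0.0377), and the D to C change of 0.38 did not pass (adjusted p = 0.0663).

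The 3p arms gave weaker signals. MiR-30e-3p, the other arm of the miR-30e hairpin, read 17.9, 14.1 and 15.9 in C, 30.4, 35.3 and 56.2 in C + P, 37.5, 32.8 and 28.0 in D, and 19.1, 32.8 and 37.2 in D + P. Its normalized log2 signals were 4.61, 4.54 and 4.53 in C, 4.81, 4.83 and 4.85 in C + P, 4.96, 4.97 and 4.84 in D, and 4.55, 4.73 and 4.82 in D + P. It thus sat with miR-30b-5p and miR-30c-5p rather than with its own 5p arm, higher in D than in C by 0.37 (SE 0.11, limma adjusted p = 0.0212) and in C + P by 0.27 (adjusted p = 0.0765). MiR-30a-3p ranged from 14.8 to 42.4 in scanner signal and from 4.14 to 4.68 in normalized log2 signal, its arrays overlapped between groups in all 5 pairwise comparisons, and its change from C was 0.10 in D (95% confidence interval -0.21 to 0.41) and -0.08 in C + P (-0.39 to 0.23).

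**Figure D2:**
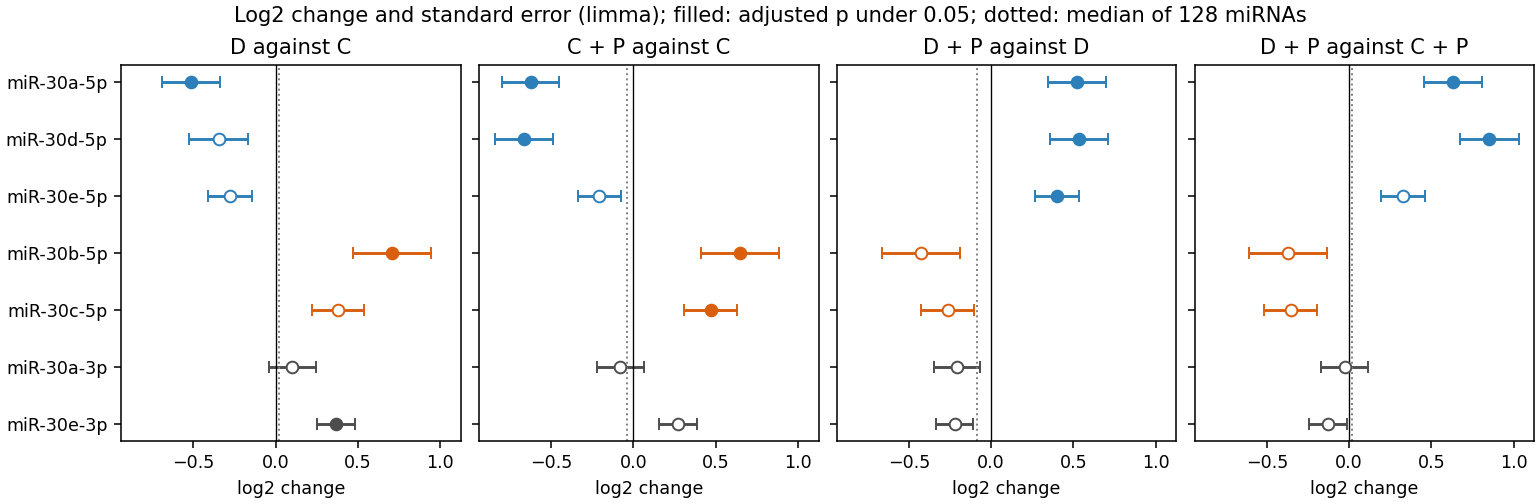
Log2 change (x axis) with its standard error from limma for the 7 miR-30 members (y axis) in 4 comparisons of the heart groups, after cyclic loess; filled points have an adjusted p under 0.05 and the dotted line is the median change of the 128 miRNAs tested. Blue members (miR-30a-5p, miR-30d-5p and miR-30e-5p) lie left of 0 and orange ones (miR-30b-5p and miR-30c-5p) right of 0 against C, and the sides are exchanged in D + P against D and against C + P; without normalization the blue members lie right of 0 against C.

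These calls stood among many others on the same arrays. In D against C, 3 of 7 members passed, 2 higher and 1 lower, where 50% of the 128 miRNAs passed. In C + P against C it was 4 of 7, 2 in each direction, against 36.7% of all. Without normalization 3 members passed in D against C and 5 in C + P against C, with 0 lower in either. Of all 128 miRNAs, 60 and 96 passed in these 2 comparisons without normalization. In D + P against D 3 of 7 passed, all higher, against 53.9% of all, and in D + P against C + P 2 of 7, both higher, against 13.3%. No member passed in D + P against C, where limma called 1.56% of all miRNAs and no member had an unadjusted p under 0.05. The median change of the 7 members was 0.10 in D against C and -0.08 in C + P against C, beside 0.02 and -0.04 over all 128, so the family's median stayed near that of the array while its members parted. Arrays did not overlap for 6 of 7 members in D against C and 6 of 7 in C + P against C, beside 89 and 97 of all 128 miRNAs. In D + P against D it was 3 of 7 beside 72 of 128, and in D + P against C + P 4 of 7 beside 55 of 128. The comparisons of D and of C + P with C share the C arrays, and D + P against D uses the same D arrays as D against C.

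The effect of pargyline differed between diabetic and control hearts for 6 of the 7 members, where 70.3% of all miRNAs passed the same interaction test in limma. The interaction, the pargyline change in diabetic hearts minus that in control hearts, was 1.15 for miR-30a-5p (SE 0.25, adjusted p = 0.00353) and 1.20 for miR-30d-5p (SE 0.25, adjusted p = 0.00344). It was -1.08 for miR-30b-5p (SE 0.34, adjusted p = 0.0143). MiR-30a-3p gave -0.13 (adjusted p = 0.572). The directions of miR-30a-5p, miR-30d-5p and miR-30e-5p (0.60) rest on the scaling. Without normalization the interaction was -0.43 for miR-30a-5p, -0.0237 for miR-30d-5p and -0.80 for miR-30e-5p, none of them past the threshold. Those of miR-30b-5p (-2.30), miR-30c-5p (-2.02) and miR-30e-3p (-1.49) kept their sign and passed without normalization (limma adjusted p = 0.00407, 0.00392 and 0.00878).

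Single arrays decided several of these counts, and the matching counts over all miRNAs are not given. Without D + P replicate 1, 6 members passed in D against C in place of 3, 0 in D + P against D in place of 3, 1 in D + P against C + P in place of 2, and 1 in D + P against C, miR-30b-5p with a change of 0.59 (limma adjusted p = 0.0187). No member passed in D against C without C replicate 2, C replicate 3, D replicate 1 or D replicate 2, in C + P against C without C replicate 2, C replicate 3, C + P replicate 2 or C + P replicate 3, in D + P against D without D replicate 1 or D replicate 2, or in D + P against C + P without C + P replicate 2, C + P replicate 3 or D + P replicate 2. It was 2 in C + P against C without C + P replicate 1 or D replicate 1, and 1 in D + P against C + P without C + P replicate 1, D replicate 2 or any of the 3 C arrays. The log2 changes of the 5p members in D against C and in C + P against C kept their sign with every array left out, from -0.63 to -0.45 for miR-30a-5p and from 0.59 to 0.86 for miR-30b-5p in D against C.

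Ratios of 2 members on the same array need no scaling between arrays, and the genomic pairs were set against each other in this way. The size of a ratio also holds the unequal brightness of 2 probes, so only its differences between arrays are read. The log2 ratio of miR-30d-5p to miR-30b-5p was 0.46, 0.74 and 0.60 in C, -0.33, -0.81 and -1.01 in C + P, -0.79, -0.56 and -0.02 in D, and 1.55, 0.03 and -0.05 in D + P. C lay above C + P and above D without overlap, by 1.32 and 1.05 in the means, and D + P held both the highest array and 2 arrays below every C array. For miR-30a-5p over miR-30c-5p the values were 1.26, 1.44 and 1.53 in C, 0.71, 0.30 and 0.39 in C + P, 0.52, 0.51 and 0.96 in D, and 2.03, 0.97 and 0.94 in D + P. MiR-30e-5p over miR-30c-5p, the pair within Nfyc, gave 0.67, 0.83 and 0.92 in C, 0.40, -0.01 and 0.18 in C + P, 0.11, 0.09 and 0.43 in D, and 1.42, 0.49 and 0.55 in D + P. In all 3 genomic pairs the ratio was thus lower in every C + P and D heart than in every C heart, with no normalization involved. The ratios over miR-30c-5p share that signal, which reads both of its loci, so they are not independent. How often other miRNA pairs separate in this way is not given. All 3 ratios also moved with the control features of the array, as described below.

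Across the 12 arrays the log2 ratios within the genomic pairs spanned 1.73 for miR-30a-5p to miR-30c-5p, 2.56 for miR-30d-5p to miR-30b-5p and 1.43 for miR-30e-5p to miR-30c-5p. Between members of different pairs the spans were as wide where one of miR-30a-5p, miR-30d-5p and miR-30e-5p was set against miR-30b-5p or miR-30c-5p, at 2.09 for miR-30a-5p to miR-30b-5p, 1.88 for miR-30e-5p to miR-30b-5p and 2.25 for miR-30d-5p to miR-30c-5p. They were narrower among miR-30a-5p, miR-30d-5p and miR-30e-5p, from 0.40 to 1.01, and between miR-30b-5p and miR-30c-5p, at 0.57. This grouping was made after the values had been seen.

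The arms of 1 hairpin were compared in the same way. MiR-30e-5p over miR-30e-3p gave log2 ratios of 3.40, 3.56 and 3.55 in C, 3.28, 3.01 and 3.16 in C + P, 3.02, 3.03 and 3.15 in D, and 3.59, 3.36 and 3.27 in D + P. Every C + P and D heart was below every C heart, by 0.35 and 0.44 in the means, and every D + P heart was above every D heart. MiR-30a-5p over miR-30a-3p gave 4.26, 4.09 and 4.11 in C, 3.94, 3.77 and 3.78 in C + P, 3.85, 3.80 and 4.00 in D, and 4.55, 4.11 and 3.89 in D + P. The C values again exceeded those of C + P and D without overlap, by 0.32 and 0.27 in the means.

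**Figure D3:**
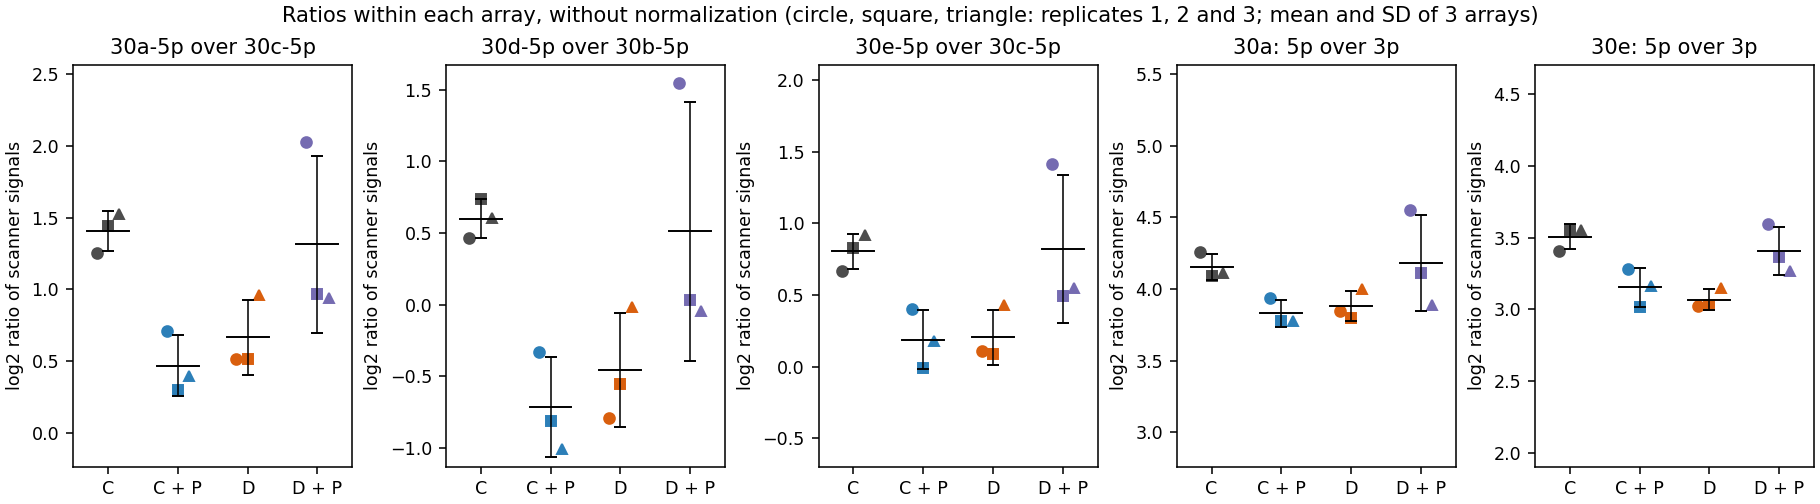
Log2 ratio of the scanner signals of 2 miR-30 members on the same array (y axis; all panels span 2.8 log2 units) by group (x axis), with the mean and SD of 3 arrays and no normalization. In each panel every C + P and D heart lies below every C heart, and D + P replicate 1 (circle) is the highest array.

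Over all 4 groups, exact permutation tests of the one-way F statistic (369600 arrangements of 12 arrays) gave p = 0.0120 for the miR-30e arm ratio, 0.0371 for miR-30a-5p to miR-30c-5p, 0.0375 for miR-30d-5p to miR-30b-5p, 0.0436 for miR-30e-5p to miR-30c-5p and 0.0953 for the miR-30a arm ratio. After Benjamini-Hochberg adjustment over 6 measures the first 4 stood at p = 0.0654 and the last at 0.114 by the exact permutation test, so none passed. Between single pairs of groups, 3 arrays against 3 cannot go below a two-sided exact p of 0.1, which all 5 ratios reached in D against C and in C + P against C. Without D + P replicate 1, which had the highest value of all 5 ratios, the adjusted permutation p was 0.0113 for the miR-30e arm ratio, miR-30a-5p to miR-30c-5p and miR-30d-5p to miR-30b-5p, 0.0126 for miR-30e-5p to miR-30c-5p and 0.0368 for the miR-30a arm ratio. Leaving out D + P replicate 2 or D + P replicate 3 in turn also brought the adjusted p of the miR-30e arm ratio, miR-30a-5p to miR-30c-5p and miR-30d-5p to miR-30b-5p under the threshold, that of miR-30e-5p to miR-30c-5p without D + P replicate 2 and that of the miR-30a arm ratio without D + P replicate 3. With any C, C + P or D array left out, none of the 5 ratios passed (adjusted permutation p from 0.0666 to 0.219). The difference of diabetic from non-diabetic hearts averaged over both slides, permuted within slide, lay between -0.09 and 0.09 for the 5 ratios (exact permutation p from 0.495 to 0.955). That average says nothing of either slide, since the slides went opposite ways, with D minus C at -1.05 and D + P minus C + P at 1.23 for miR-30d-5p to miR-30b-5p.

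The 7 members together held 2.13% to 3.00% of the detected signal of an array. The share was 2.48% ± 0.15 in C, 2.23% ± 0.18 in C + P, 2.39% ± 0.06 in D and 2.66% ± 0.34 in D + P (SD, n = 3), and the exact permutation p over the 4 groups was 0.146. Without D + P replicate 1 the adjusted permutation p was 0.0130 for a highest difference of 0.59 percentage points. With any other array left out it stayed above the threshold, between 0.114 and 0.324.

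The family ratios moved with the brightness of the control features of the array. Across the 12 arrays the log2 ratio of miR-30d-5p to miR-30b-5p correlated with the mean log2 control signal at r = -0.92 (Spearman's rho -0.87), with permutation p adjusted over 5 relations of 0.00025 and 0.00255. Pearson's r of the other 4 ratios lay between -0.83 and -0.89 (adjusted permutation p from 0.0003 to 0.00054) and rho between -0.73 and -0.81 (adjusted permutation p from 0.00373 to 0.00902). Without the 2 arrays farthest from the median control signal, C replicate 2 and D + P replicate 1, r lay between -0.75 and -0.89. Within slide 1 it was -0.79 to -0.97 and within slide 2 -0.80 to -0.94, over 6 arrays each. Over the 8 arrays brighter than the C arrays and D + P replicate 1, r was -0.72 for miR-30d-5p to miR-30b-5p and between -0.36 and -0.66 for the other 4.

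**Figure D4:**
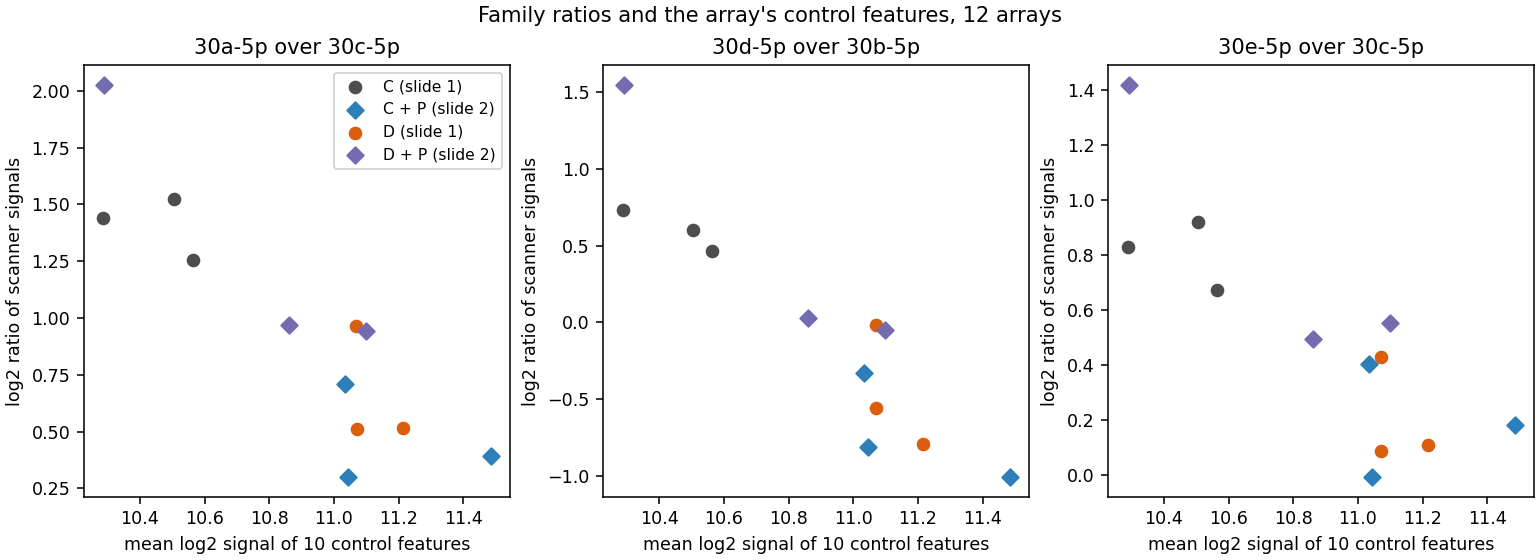
Log2 ratio of the 2 members of each genomic miR-30 pair (y axis) against the mean log2 signal of 10 control features (x axis) on 12 arrays, coloured by group, with circles for slide 1 and diamonds for slide 2. Arrays with dim control features, the 3 C arrays and D + P replicate 1, have the highest ratios, and r is -0.89, -0.92 and -0.84 from left to right.

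With the mean control signal as a covariate in the limma fit, 0 of 7 members passed in D against C, in C + P against C and in the interaction. The fall was not particular to the family. Of all 128 miRNAs, 64, 47 and 90 passed in the main fit, in the same order, and 1, 2 and 0 with the covariate. The D to C change of miR-30a-5p was then -0.07 (adjusted p = 0.912) and that of miR-30b-5p 0.06 (adjusted p = 0.932). The C arrays and the other groups except D + P did not overlap in control signal, so group and control signal cannot be told apart for D against C and C + P against C.

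MiRNAs taken as markers of cell types also differed between the groups. The normalized signal summed over the 2 of 5 leucocyte miRNAs detected on all arrays lay between 17.95 and 28.2 in C, between 44.6 and 49.1 in C + P, between 32.8 and 42.9 in D and between 7.82 and 28.4 in D + P. That of the 3 of 4 fibroblast miRNAs detected on all arrays lay between 139.9 and 154 in C, 204 and 218 in C + P, 178 and 205 in D, and 99.0 and 164 in D + P. For the 6 of 7 cardiomyocyte miRNAs the sums lay between 6668 and 7062 in C, 8143 and 9219 in C + P, 7949 and 9021 in D, and 5268 and 8243 in D + P. Within that list miR-1a-3p rose by 1.32 in D and 1.48 in C + P, miR-378a-3p changed by -0.53 and -0.75 and miR-208a-3p by -0.78 in D, all past the limma threshold, while miR-133a-3p and miR-133b-3p did not pass in either. The 2 smooth muscle miRNAs summed to between 59.8 and 70.5 in C and between 78.8 and 103 in the other groups, and miR-126a-3p, the 1 of 2 endothelial miRNAs detected on all arrays, lay between 669 and 719 in C, 785 and 899 in D and C + P, and 612 and 775 in D + P. The 3 red cell miRNAs summed to between 758 and 943 in C and between 584 and 768 in the other groups. The part of these differences in the miR-30 changes was not tested.

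The array also carried 5 products of the family that were not detected in every heart. MiR-30c-2-3p was detected in 0 C, 3 C + P, 2 D and 1 D + P hearts, miR-30c-1-3p in 0, 2, 0 and 2, and miR-30b-3p in 0, 1, 2 and 2. MiR-30d-3p and miR-30f were detected on no array. None of the 5 was thus seen in any C heart, nor in D + P replicate 1 or D replicate 3. The C arrays and D + P replicate 1 had the dimmest control features, and D replicate 3 did not. C arrays also detected fewer miRNAs of any kind, 144 to 163 against 165 to 253 in the other groups.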

How the data were processed

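The authors deposited, for each of 12 one-colour miRNA arrays, an intensity from the scanner software for every one of 1881 miRNAs, with its error and a detection flag and not scaled between arrays; an undetected miRNA is written as 0.1. The authors' table of normalized intensities for 209 miRNAs served as an alternative. The methods and the sample records give different amounts of labelled RNA, and the extraction note of the records names macrophages where the tissue is heart muscle.

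Intensities of the 128 miRNAs detected on all arrays were taken to log2 and set on one scale by cyclic loess (span 0.7, 3 iterations). Means of 4 groups were fitted in 1 model with lmFit and eBayes (limma 3.58.1, R 4.3.3), and p-values were adjusted by Benjamini-Hochberg over 128 miRNAs, with a threshold of 0.05. Ratios and shares used unscaled signals and exact permutation tests (Python 3.11.15, scipy 1.17.1). Marker sums add the normalized signals of the listed miRNAs detected on all arrays. The code was tested on simulated data. Tests were two-sided except the one-way F. The methods use t-tests, an alternative here. No pair of arrays was identical, and the number of arrays limits the precision.

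Members, marker lists and tests were chosen with earlier results of these data known. Named miRNAs are the 7 members, the other family products, the cell type markers, and the 5 most and 3 least like the mean of the 5p members. MiR-384-5p, miR-26b-5p and miR-23a-3p were named after their values were seen. Alternatives were no normalization, quantile normalization, the 75th percentile as the scale, each slide alone, 2 other filters, the authors' values, a control feature covariate, a replicate block, only the groups compared, and each array left out.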

Additional observations from a re-analysis of the deposited data

Results flagged for a closer look

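The interaction of diabetes and pargyline passed in the limma fit for 6 of the 7 members, with pargyline and slide not to be told apart. The interaction (log2) was 1.15 for miR-30a-5p, 1.20 for miR-30d-5p and 0.60 for miR-30e-5p. It was -1.08 for miR-30b-5p, -0.73 for miR-30c-5p and -0.49 for miR-30e-3p. Without normalization the values were -0.43 for miR-30a-5p, -0.0237 for miR-30d-5p and -0.80 for miR-30e-5p, of the opposite sign. The sign held without normalization for miR-30b-5p (-2.30), miR-30c-5p (-2.02) and miR-30e-3p (-1.49), where the median over all 128 miRNAs was -1.17. With the control feature covariate 0 of 7 members passed, as did 0 of all 128 miRNAs. In the main fit 70.3% of the 128 miRNAs passed.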

How the results depend on the processing

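The counts of members past the threshold depended on the processing. In D against C (3 members) the count was 1 with the authors' normalized values, with no filter and with scaling to the 75th percentile, 0 with the control feature covariate, 5 with each slide normalized alone, 6 by the methods' t-test and with only the groups compared, and 0 to 6 with each array left out. In C + P against C (4 members) it was 2 with the authors' values, with the filter of detection throughout 1 or more groups, with quantile normalization and with the replicate block, 1 with the 75th percentile, 0 with the covariate and with no filter, and 0 to 5 with each array left out. In D + P against D (3 members) it was 0 with the authors' values, the covariate, the t-test, no filter, no normalization and only the groups compared, 1 with the 75th percentile, and 0 to 4 with each array left out. In D + P against C + P (2 members) it was 0 with the authors' values, the covariate, each slide alone, the t-test, no filter, no normalization and only the groups compared, 1 with that wider filter, quantile normalization, the replicate block and the 75th percentile, and 0 to 3 with each array left out. In D + P against C (0 members) it was 1 with the covariate and with no normalization, and 0 to 1 with each array left out. The counts over all 128 miRNAs moved too. In D + P against C, 13 passed with the covariate and 18 without normalization, against 2 in the main fit. In D + P against D it was 0 and 8, against 69, and in D + P against C + P 1 and 2, against 17. Counts over all miRNAs with an array left out are not given. The interaction count (6 members) was 0 with the covariate and with no filter, 3 without normalization, and 5 to 6 with each array left out. The cause was not tested.

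The sign of a log2 change turned in 39 of 420 member values under these alternatives. Without normalization it turned in C + P against C for miR-30a-3p (0.95), miR-30a-5p (0.62), miR-30d-5p (0.41) and miR-30e-5p (0.95), in D against C for miR-30a-5p (0.45), miR-30d-5p (0.42) and miR-30e-5p (0.60), in the interaction for miR-30a-5p (-0.43), miR-30d-5p (-0.0237) and miR-30e-5p (-0.80), in D + P against C for miR-30a-3p (0.61) and in D + P against C + P for miR-30e-5p (-0.20). With the covariate it turned in C + P against C for miR-30b-5p (-0.0684) and miR-30e-5p (0.0475), in D against C for miR-30d-5p (0.18) and miR-30a-3p (-0.0997), in the interaction for miR-30b-5p (0.000167) and miR-30a-3p (0.20), in D + P against C for miR-30b-5p (-0.0128) and miR-30c-5p (-0.0304), and in D + P against C + P for miR-30a-3p (0.10) and miR-30b-5p (0.0556). With the 75th percentile it turned for miR-30a-3p in D + P against D (0.15), the interaction (0.30), D + P against C + P (0.18), D against C (-0.12) and D + P against C (0.0317), and for miR-30e-3p in D + P against D (0.0786) and D + P against C + P (0.0605). With the authors' values it turned in D + P against C for miR-30a-5p (-0.16), miR-30c-5p (-0.0350), miR-30d-5p (-0.0111), miR-30e-3p (-0.0385) and miR-30e-5p (-0.00428), and in C + P against C for miR-30a-3p (0.0483). It also turned for miR-30a-3p in D + P against C + P with quantile normalization (0.0257), the wider filter (0.0210) and no filter (0.0403), and for miR-30a-5p in D + P against C with quantile normalization (-0.0854). With an array left out, 8 of 504 values turned, none of a change that had passed, and the ranges were -0.22 to 0.0192 for miR-30a-3p, -0.19 to 0.17 for miR-30a-5p, -0.00611 to 0.29 for miR-30c-5p and -0.0175 to 0.33 for miR-30d-5p in D + P against C, and for miR-30a-3p -0.14 to 0.11 in D + P against C + P and -0.25 to 0.0256 in the interaction.

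After cyclic loess the highest difference between groups passed the permutation test for miR-30a-5p to miR-30c-5p (1.10), miR-30d-5p to miR-30b-5p (1.32), miR-30e-5p to miR-30c-5p (0.68), the miR-30e arm ratio (0.64) and the share of signal (0.31 percentage points), and with the authors' values for the share (0.73). With each array left out the highest difference in the unscaled signals was 0.86 to 1.06, 1.17 to 1.51, 0.61 to 0.79, 0.41 to 0.49 and 0.26 to 0.59 for these measures in the same order, and 0.32 to 0.50 for the miR-30a arm ratio. Of the 420 member values 283 kept direction and side of the threshold, 83 lost the call with the same sign and 15 gained one, and of the 504 with an array left out 430 kept both, 58 lost the call and 8 gained one.

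Replicate numbers are shared across groups, but of 18 same-numbered pairs only 4 correlated above 0.1 in their deviations from the group means (range -0.37 to 0.49), so they do not pair the mice. Permuted within replicate number, the 6 measures had an adjusted p of 0.0990.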

Other observations

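Outside the family, the miRNAs whose normalized signal followed the mean of the 5 centred 5p members most closely over the 12 arrays were miR-378d (r = 0.78), miR-26a-5p (0.76), miR-378b (0.74), miR-378c (0.72) and miR-29a-3p (0.69), among 121. The least like were miR-345-5p (-0.89), miR-146a-5p (-0.89) and miR-499-5p (-0.87). Once the values had been seen, both sets of members that moved apart were taken alone. MiR-378d (0.98), miR-378b (0.98) and miR-378a-3p (0.96) were then closest to miR-30a-5p, miR-30d-5p and miR-30e-5p, and miR-26b-5p (0.96) and miR-23a-3p (0.94) to miR-30b-5p and miR-30c-5p. All of these values share arrays and normalization, and they are descriptions.

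Base composition went with the change across miRNAs. Over the 108 of 128 miRNAs with a RefSeq sequence (84.4%), the GC content of the mature miRNA correlated with the log2 change at r = -0.48 in D against C, -0.48 in C + P against C, 0.50 in D + P against D and 0.49 in D + P against C + P, comparisons that share arrays. MiRNAs are not independent replicates, and no p is given. The GC content of the members with a sequence was 45.5% for miR-30a-5p, 43.5% for miR-30c-5p, 40.9% for miR-30e-5p, 50% for miR-30a-3p and 45.5% for miR-30e-3p. Their log2 changes in D against C were -0.52, 0.38, -0.28, 0.10 and 0.37 in the same order. The changes did not follow the order of GC content, and a relation within the family was not tested.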
